A study of Mus musculus with 5 samples.

Results

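Rnf genes encode proteins with a RING finger, a zinc-binding fold by which an E3 ubiquitin ligase brings a ubiquitin-loaded E2 enzyme to its substrate. The chain of ubiquitin that results can send the substrate to the proteasome, move it between membranes or change its activity. The name marks the fold and not a shared pathway, so the family holds nuclear, endosomal, ER and cytosolic ligases, among them regulators of transforming growth factor-β (TGF-β) signaling, a pathway known for its part in fibroblast activation. Members were all names of the deposited tables that begin with Rnf and a digit, with repeated rows dropped and, for each gene, the single interval kept whose CPM averaged highest over the labeled libraries. This gave 83 of 20365 gene names, with 161 of 40428 distinct intervals.

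The cells were cardiac fibroblasts (CF) isolated by collagenase perfusion from hearts of healthy adult male C57Bl/6J wildtype mice and grown to confluency. For SLAMseq, 3 samples were kept for 12 h with 0.1 mM S4U (4-thiouridine, an analog of uridine), here called labeled, and 2 samples were kept for the same 12 h without it, here called unlabeled. RNA of both groups was alkylated with iodoacetamide, after which incorporated S4U is read as C in place of T, and 3′ end libraries were made from it. The T>C rate is the number of T>C conversions divided by the covered T positions of an interval, and the level is the reads of an interval on the CPM scale, relative to the sum of the reads counted on the chosen intervals of that library. A 3′ end library counts about one fragment per transcript, so levels of different genes were compared without division by length. The study describes its SLAMseq replicates as separate preparations of cardiac fibroblasts and its controls as cultures run alongside. Which preparation each unlabeled library came from, and whether each preparation was from another animal, is not given in the sources used here, so p-values measure the spread between these libraries.

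The chosen intervals held 506045 to 1843024 reads per library, and Rnf genes took 0.330% to 0.386% of them. These were 6091, 4129 and 1730 reads in the 3 labeled libraries in the order of their numbers and 6869 and 3292 in the 2 unlabeled ones. Summed levels of 7 fibroblast markers ran from 30341 to 41301 CPM, against 76.8 to 163 for 4 endothelial, 35.8 to 73.6 for 5 immune, 0.634 to 8.03 for 4 cardiomyocyte and 4.02 to 13.8 for 4 smooth muscle and pericyte markers. The fibroblast markers were thus the most abundant of these lists in every library, as the label of the cells has it. Their sum was 37457 to 41301 in the labeled and 30341 to 33998.5 in the unlabeled libraries. Col1a1 was higher in every labeled library, at 12755 to 13293 against 8784 to 9659. Pdgfra (516 to 525 against 722 to 841) and Ddr2 (245 to 332 against 382 to 453) were lower in every labeled library. Col1a2, Col3a1, Dcn and Tcf21 overlapped between the groups. What set the groups apart here was not tested. Read counts within a group scattered beyond sampling noise, and the chi-square per degree of freedom was 2.04 between labeled replicates 2 and 3 and 10.96 to 16.6 between labeled replicate 1 and the other two. Labeled replicate 1 thus stood apart in its group. The chi-square of the unlabeled pair was 16.1, which cannot show which of the 2 libraries differs.

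Of the 83 Rnf genes, 58 had reads in every library (69.9%, against 54.9% of all genes), 9 had reads in some libraries and 16 had no read in any library on the interval used (19.3%, against 29.6% of all genes). The 16 without a read were Rnf39, Rnf43, Rnf112, Rnf133, Rnf138rt1, Rnf148, Rnf151, Rnf180, Rnf183, Rnf186, Rnf208, Rnf212, Rnf212b, Rnf222, Rnf223 and Rnf224. Rnf43, which removes Wnt receptors from the cell surface, was among them. At 0 reads of 506045 to 1843024, a level of up to 5.93 CPM in the shallowest and 1.63 in the deepest library would not have been seen, a limit that counts 3 reads and covers counting error only. Coverage of at least 300 T positions in every labeled library, the minimum set for describing a rate, was reached by 40 members.

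The intervals are 3′ UTRs of GRCm39 (mm39), and in 79 of 83 members at least 90% of the interval used lay in an annotated UTR of the gene itself. The median interval of a member was 1235 bases long, against 872 over all genes. Because 3′ end reads collect next to the site of cleavage and polyadenylation, the poly(A) signal near the annotated end of the interval is shown for 5 of the 6 members with the highest levels, in transcript direction with the signal in capitals. In the used interval of Rnf11, the other one of these 6, neither AATAAA nor ATTAAA was found within the last 50 bases.
Rnf149, chr1:39590381-39590410, minus strand: tttgtagacaaaAATAAAtgcttattgaca
Rnf187, chr11:58823118-58823147, minus strand: ttttcagtgctgAATAAAgtggtttgctcc
Rnf150, chr8:83817851-83817880, plus strand: gttttgttttttAATAAAatggaaacagat
Rnf6, chr5:146146017-146146046, minus strand: cacaaagtatgcATTAAAgtctatttctac
Rnf13, chr3:57742816-57742845, plus strand: ctgagtgctgggATTAAAgacctgcactac
For Rnf13 the shorter nested interval chr3:57741272-57742650, which ends before this signal, held 268, 135 and 48 of the 268, 136 and 48 labeled reads, so nearly all of its reads lay upstream of the signal shown. The canonical AATAAA was present in the last 50 bases of 72.5% of the 40 members with at least 300 covered T, against 68.7% of all such genes, and ATTAAA without AATAAA in 15.0% against 15.1%. Only the transcript strand was searched.

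Levels of the Rnf genes were spread over more than 2 orders of magnitude in CPM of counted reads. The median of the mean labeled level was 28.3 over all 83 members and 5.31 over all 20365 genes, and 42.1 over the 58 members read in every library against 31.7 over the 11189 genes read in every library. A mean level of at least 100 CPM was reached by 12 members, and 43 lay between 10 and 100. Another 12 had labeled reads but lay below 10, and 16 were at 0 in the labeled libraries. The 6 members with the highest level held 29.9% of the summed mean level of the family.

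Rnf149, a transmembrane ligase of endosomes and the plasma membrane with a protease-associated domain, had the highest mean level at 273 ± 61.7 (SD, n = 3). Its used interval, chr1:39590375-39591552, gave 484, 370 and 102 reads in the labeled libraries, in the order of their numbers here and throughout, and 440 and 170 in the unlabeled ones. These correspond to levels of 307, 309.6 and 202 with S4U and 239 and 171 without. Labeled replicates 1 and 2 were above both unlabeled libraries and labeled replicate 3 lay between them. The interval also overlaps an exon of Gm15832 on the same strand, and reads of the pair cannot be told apart.

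Rnf11, a small RING-H2 protein that binds ligases of the NEDD4 family and takes part in TGF-β signaling, followed at 183 ± 72.1 (SD, n = 3; chr4:109310054-109311447). Its labeled levels were 266, 149 and 134 and its unlabeled levels 170.4 and 148, so that labeled replicate 1 stood above the rest and the others overlapped. Rnf187, a RING protein known as a coactivator of c-Jun, had labeled levels of 127, 219 and 168 and unlabeled levels of 135 and 179.7 (chr11:58823114-58824219). In contrast to Rnf11, its lowest values in both groups were those of the libraries numbered 1.

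Rnf150, another transmembrane ligase with a protease-associated domain, had the smallest SD of the 6 over the labeled libraries, with levels of 189.7, 158 and 164 (chr8:83810184-83817900). Its unlabeled levels of 177 and 120.5 lay further apart than its labeled ones. Rnf6, a nuclear ligase known for acting on the androgen receptor, had labeled levels of 173, 145 and 126 and unlabeled levels of 145 and 103 (chr5:146146003-146147012). Rnf13, an endosomal and lysosomal relative of Rnf149, had labeled levels of 170.0, 114 and 94.9 and unlabeled levels of 212 and 145 (chr3:57741272-57742846). Within the 6, only Rnf149 was set apart in mean level from the next member by more than both SDs. Mean levels from Rnf11 to Rnf6 lay between 148 and 183, with SDs of 16.8 to 72.1, and neighbours in this order did not differ by more than the larger of their SDs.

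**Figure D1:**
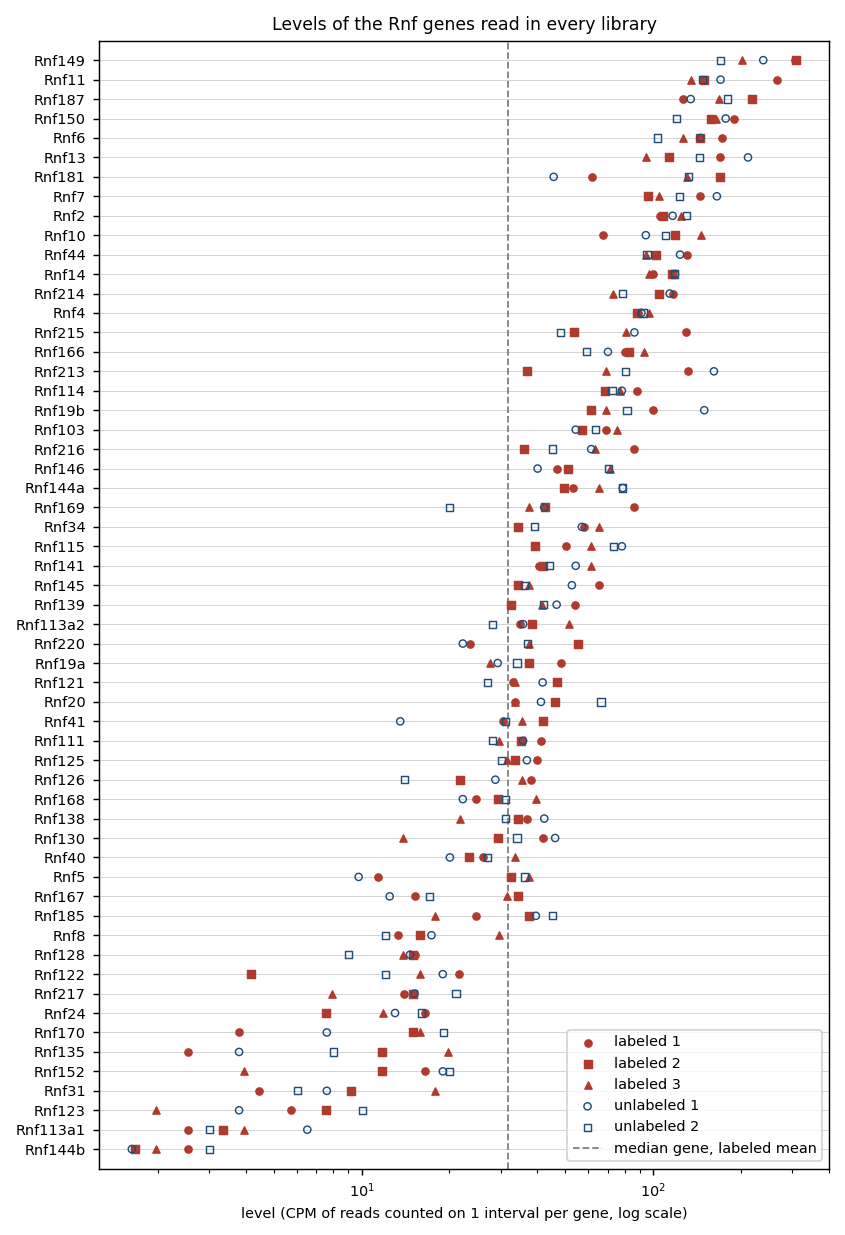
Levels of 57 of the 58 Rnf genes read in every library, in CPM of counted reads (log axis). Filled red symbols are the 3 labeled libraries, open blue symbols the 2 unlabeled libraries, and the dashed line is the median gene at 31.7. Labeled and unlabeled symbols of most members are intermixed, and symbols of replicate 1 (circles) often lie apart from those of replicate 2 (squares).

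Several members differed between the libraries numbered 1 and the rest in the same direction with and without S4U. Rnf5, an ER membrane ligase of protein quality control, had levels of 11.4, 32.6 and 37.5 with S4U and 9.77 and 36.1 without, a ratio of unlabeled replicate 2 over replicate 1 of 3.70. Rnf181 had levels of 61.5, 169 and 130.4 and 45.6 and 133, with a ratio of 2.91. Rnf213, a very large ligase with an ATPase core that is known as a moyamoya disease gene, went the other way with 131, 36.8 and 69.2 and 162 and 80.3. Beside these, the summed level of the 4 endothelial markers was 76.8, 146 and 81.0 with S4U and 107 and 163 without, and 3 of the 4 (Pecam1, Kdr and Tie1) were lowest in the library numbered 1 of both groups, whereas Cdh5 was not. The summed level of the 5 immune markers was 36.2, 73.6 and 47.4 with S4U and 35.8 and 70.3 without. Of these 5, Lyz2 and Csf1r were lowest in the library numbered 1 of both groups, and Ptprc, Cd68 and Adgre1 were not. None of these markers was at 0 in all libraries. The isolation of CF that the study describes, there for hearts after surgery, includes a magnetic depletion of CD31+ endothelial and CD45+ immune cells (the products of Pecam1 and Ptprc). The part of these markers in the levels of Rnf5, Rnf181 and Rnf213 was not tested. The used intervals of Rnf5, Rnf181 and Rnf213 overlap exons of Gm20463, Tmem150a and A930037H05Rik, in this order, on the other strand. The part of such overlaps was not tested either. In bulk libraries, more cells of a type and more RNA per cell cannot be told apart.

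Of the 8 RING-between-RING ligases, which pass ubiquitin through a cysteine of their own, all had reads in every library and their median level was 46.9. Rnf14, known for its part in the handling of stalled ribosomes, led with 104 ± 10.4, followed by Rnf19b at 76.6 ± 20.3, Rnf216 at 61.6 ± 24.9 and Rnf144a at 56 ± 8.25 (mean labeled level ± SD, n = 3). Rnf19a was at 37.8 ± 10.3 and Rnf217 at 12.3 ± 3.85. Rnf31, the catalytic subunit of the linear ubiquitin chain assembly complex (LUBAC), was at 10.5 ± 6.76, with 7, 11 and 9 labeled and 14 and 6 unlabeled reads, and its used interval of 89 bases also overlaps Irf9 on the same strand. Rnf144b was the lowest member read in every library at 2.06 ± 0.439, with 1 to 4 reads per library.

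The transmembrane ligases with a protease-associated domain were split. Rnf149, Rnf150 and Rnf13 were among the 6 highest members, whereas Rnf130 was at 28.3 ± 14, Rnf167 at 27.1 ± 10.3 and Rnf128, known as a regulator of T cell anergy, at 14.7 ± 0.762 (SD, n = 3). The remaining 3 of 9, Rnf43, Rnf133 and Rnf148, had no read.

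All 9 ligases of chromatin and DNA damage were read in every library. Rnf2, the catalytic subunit of Polycomb repressive complex 1 that ubiquitinates histone H2A, was highest at 113 ± 10.2 and the SUMO-targeted ligase Rnf4 was next at 91.2 ± 4.92 (SD, n = 3). Both varied little, with labeled levels of 106, 108 and 124 and 88.8, 87.9 and 96.8. Rnf20 and Rnf40, which form the heterodimer that ubiquitinates histone H2B, were at 37.7 ± 7.17 and 27.7 ± 5.28. The double-strand break ligases Rnf8, Rnf168 and Rnf138 were at 19.6 ± 8.77, 31.2 ± 7.57 and 30.9 ± 8.07.

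Rnf169, which binds the ubiquitin marks made by Rnf168, has 2 separate intervals. The one used by the rule, chr7:99584545-99591709, overlaps 0 bases of the annotated exons of the gene and gave 136, 51 and 19 labeled and 78 and 20 unlabeled reads. The other one, chr7:99569461-99574508, lies wholly in its annotated 3′ UTR and gave 81, 90 and 38 labeled and 43 and 37 unlabeled reads. In both groups the library numbered 1 had more reads on the interval outside the exons and the other libraries had more on the annotated UTR.

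The 8 ER membrane ligases were read at moderate levels with a median of 32.5. Rnf103 was highest at 67.1 ± 9.27, followed by Rnf145 and Rnf139, both known for acting on sterol metabolism, at 45.7 ± 17.1 and 42.7 ± 10.7 (SD, n = 3). Rnf121 was at 37.8 ± 7.84, Rnf185 at 26.7 ± 10.1, Rnf5 at 27.2 ± 13.9 and Rnf170, which acts on inositol trisphosphate receptors, at 11.6 ± 6.72. Rnf26 had no read in either library numbered 1 and 3 to 7 reads in each of the others.

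The zinc finger ligases with a ubiquitin-interacting motif held a median level of 56.5, with Rnf166 at 85.2 ± 6.78, Rnf114 at 78 ± 9.82, Rnf125, known for limiting RIG-I signaling, at 35 ± 4.39 and Rnf138 as above. Of the 6 ligases of TGF-β and Wnt signaling, 4 were read in every library. Besides Rnf11, these were Rnf146, which recognizes poly(ADP-ribose) and destabilizes axin, at 56.4 ± 12.9, Rnf220 at 38.8 ± 15.9 and Rnf111 (Arkadia), which removes inhibitors of SMAD signaling, at 35.3 ± 5.8 (SD, n = 3). Rnf165, a relative of Arkadia expressed in neurons, had 2, 1 and 1 labeled and 11 and 0 unlabeled reads. The 6 members known from germ cells had no read except for Rnf17 with 1, 0 and 0 labeled and 2 and 0 unlabeled reads. Among them, the used intervals of Rnf133 and Rnf148 are only 40 and 150 bases long. That of Rnf212 lies outside its annotated exons, which likewise limits what a lack of reads can show. The 2 members known from kidney and gut epithelium had no read. Among the 4 members known from the nervous system, Rnf157 had 10, 6 and 0 labeled reads and Rnf182 1, 2 and 0, Rnf165 is given above and Rnf112 had no read.

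Outside these lists, Rnf7, which pairs with cullin 5, was read at 115 ± 25.9 and Rnf10, known for ubiquitinating proteins of the small ribosomal subunit, at 111 ± 40.1 (mean labeled level ± SD, n = 3). The used interval of Rnf10 also overlaps Pop5 on the other strand. Rnf34 was at 52.4 ± 16.1 and Rnf126, a ligase of cytosolic protein quality control, at 31.8 ± 8.79. Rnf207, known from heart muscle and the QT interval of the electrocardiogram, had 2, 1 and 0 labeled and 2 and 1 unlabeled reads, beside cardiomyocyte markers of which Myh6 was at 0 in every library but labeled replicate 2 and Tnnt2 was read in every library at 0.634 to 6.02. Rnf25, Rnf32 and Rnf225 were likewise seen in only some libraries, with at most 7 reads in any of them.

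Some members had reads on separate 3′ UTR intervals. Rnf13 had 268, 136 and 48 labeled reads on its used interval and 20, 7 and 5 on another that ends upstream of it, at chr3:57740492-57740653, which overlaps Pfn2 on the other strand. Rnf130 had 66, 35 and 7 labeled reads on its used interval and 17, 14 and 4 on another at chr11:50009982-50016546. In both the used interval held most of the reads in every library, in contrast to Rnf169.

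The first comparison asked whether Rnf transcripts took up S4U. Over all members, the pooled T>C rate was 0.0403, 0.0405 and 0.0426 in the labeled libraries and 0.000803 and 0.000550 in the unlabeled ones. In the beta-binomial likelihood-ratio test, 57 of the 58 members tested had a raised rate at an unadjusted two-sided p below 0.05, the threshold of the study. Over all genes with a covered T in every library the percentage was 95.2%, so the share of Rnf genes was close to the background. In 56 of 58 members every labeled rate was above both unlabeled rates, against 90.3% of genes. The exception in the test was Rnf144b, with rates of 0, 0 and 0.0645 on only 73, 49 and 31 covered T positions and an unadjusted beta-binomial p, for a chi-square with 1 degree of freedom, of 0.266.

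The strength of labeling can be read from the deepest members. Rnf149 had rates of 0.0445, 0.0470 and 0.0429 on 9647, 8043 and 2240 covered T positions with S4U and 0.00195 and 0.00153 without. Rnf11 had rates of 0.0445, 0.0406 and 0.0419 with S4U and 0.000327 and 0.000539 without. In 22 of the 58 members no conversion was seen without S4U, and for Rnf150 this meant 0 of 8999 covered T positions, which allows a rate of up to 0.000333. The median pooled unlabeled rate was 0.000334 over the 58 members and 0.000374 over the 11189 genes read in every library. The highest was 0.00481 for Rnf130, with unlabeled rates of 0.00413 and 0.00653 against labeled rates of 0.0472, 0.0325 and 0.0366.

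A second comparison placed each member against the middle gene of the same labeled library, since a higher T>C rate after 12 h marks a transcript of which a larger share was made during the labeling. Over the 40 members with at least 300 covered T, the median of the mean labeled rate was 0.0410 with quartiles of 0.0367 and 0.0436, against 0.0387 with quartiles of 0.0346 and 0.0423 over 5557 genes. Of the 40 members, 25 were above the median gene and 15 at or below it, and 19 lay between the quartiles of all genes, 14 above and 7 below. By limma on the log2 odds of conversion, with Benjamini-Hochberg adjustment over all 5557 genes, 0 members were above and 0 below the middle gene at an adjusted p below 0.05, where 2.74% of genes were above and 10.6% below. At an unadjusted p below 0.05, limma gave 7 of 40 members, Rnf113a2, Rnf114, Rnf141, Rnf149, Rnf2 and Rnf44 above and Rnf19a below, where 25.5% of genes were called in either direction. The median unadjusted 95% half-width of a member's difference was 0.28 on the log2 odds scale.

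Mean rates of the members ran from 0.0269 to 0.0540. Their SD was 0.00560, against 0.00805 over genes, whereas the quartiles given above lie almost as far apart for the members as for the genes. In each labeled library the rates of the 40 members scattered around a common binomial rate by a chi-square of 1.74 to 1.98 per degree of freedom, where the rates of all 5557 genes scattered with 7.54 to 15.1, a measure that grows with coverage. The rank correlation of member rates between labeled libraries was 0.18 to 0.29, against 0.42 to 0.49 over all genes. These are descriptions across genes, which are not independent replicates and differ in coverage.

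The members with the highest rates were Rnf113a2, Rnf2, Rnf141, Rnf114, Rnf44 and Rnf7. Rnf113a2, an intronless relative of the splicing-associated ligase Rnf113a1, had rates of 0.0520, 0.0628 and 0.0471 on 943, 939 and 425 covered T positions, the highest mean of the 40. Its log2 odds were 0.51 ± 0.16 (SE) above the middle gene with an adjusted p of 0.0850 (limma). Reads of Rnf113a2 and Rnf113a1 may be split uncertainly between these copies, and Rnf113a1 itself had only 4, 4 and 2 labeled reads.

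Rnf2 had rates of 0.0375, 0.0470 and 0.0565, a spread that reached from below the median gene in labeled replicate 1 to the highest value of labeled replicate 3 among the 40. Rnf141 had rates of 0.0426, 0.0460 and 0.0524 and Rnf7, the RING partner of cullin 5 in ubiquitin ligase complexes, of 0.0475, 0.0370 and 0.0509. Rnf114 and Rnf44 were the most even, with 0.0474, 0.0455 and 0.0477 and 0.0463, 0.0448 and 0.0488. All 3 labeled values of both lay above the upper quartile of genes, and their log2 odds were 0.30 ± 0.11 (SE) and 0.28 ± 0.08 (SE) above the middle gene, with adjusted p of 0.124 and 0.0626 (limma). Rnf149 reached 0.22 ± 0.06 (SE) with an adjusted p of 0.0642. When only the 2123 genes with at least 1000 covered T in every labeled library were fitted, Rnf44 and Rnf149 were called above at an adjusted p below 0.05, 2 of 15 members, and 0 were called below, where 10.1% of genes were above and 21.1% below.

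The members with the lowest rates were Rnf19a, Rnf40, Rnf167, Rnf20, Rnf144a and Rnf187. Rnf19a (Dorfin), a RING-between-RING ligase, had rates of 0.0345, 0.0235 and 0.0226 on 1246, 1065 and 398 covered T positions and log2 odds −0.54 ± 0.17 (SE) relative to the middle gene, with an adjusted p of 0.0849 (limma). Labeled replicate 1 lay between the lower quartile and the median of genes in that library, and the other two were below the lower quartile of theirs. The partners Rnf20 and Rnf40 both belonged to this end, Rnf20 with rates of 0.0282, 0.0274 and 0.0390 and Rnf40 with 0.0308, 0.0344 and 0.0192. Their differences from the middle gene were −0.30 ± 0.17 (SE) and −0.46 ± 0.23 (SE), with 95% intervals of −0.68 to 0.08 and −0.98 to 0.06 that include 0.

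Rnf167, which acts at lysosomes, had rates of 0.0427, 0.0238 and 0.0274, with labeled replicate 1 above the median gene and the others below the lower quartile. Rnf144a had 0.0270, 0.0332 and 0.0386 and Rnf187 had 0.0302, 0.0380 and 0.0322. Of the used intervals of these 6 members, that of Rnf19a overlaps the microRNA gene Mir8097 on the same strand, whose reads cannot be told apart from its own. That of Rnf167 overlaps Pfn1 on the other strand, a gene of the actin cytoskeleton, and whether strand was used in counting is not given in the sources used here. In all, 18 of the 67 members with reads overlap an exon of another gene on the other strand and 6 on the same strand.

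**Figure D2:**
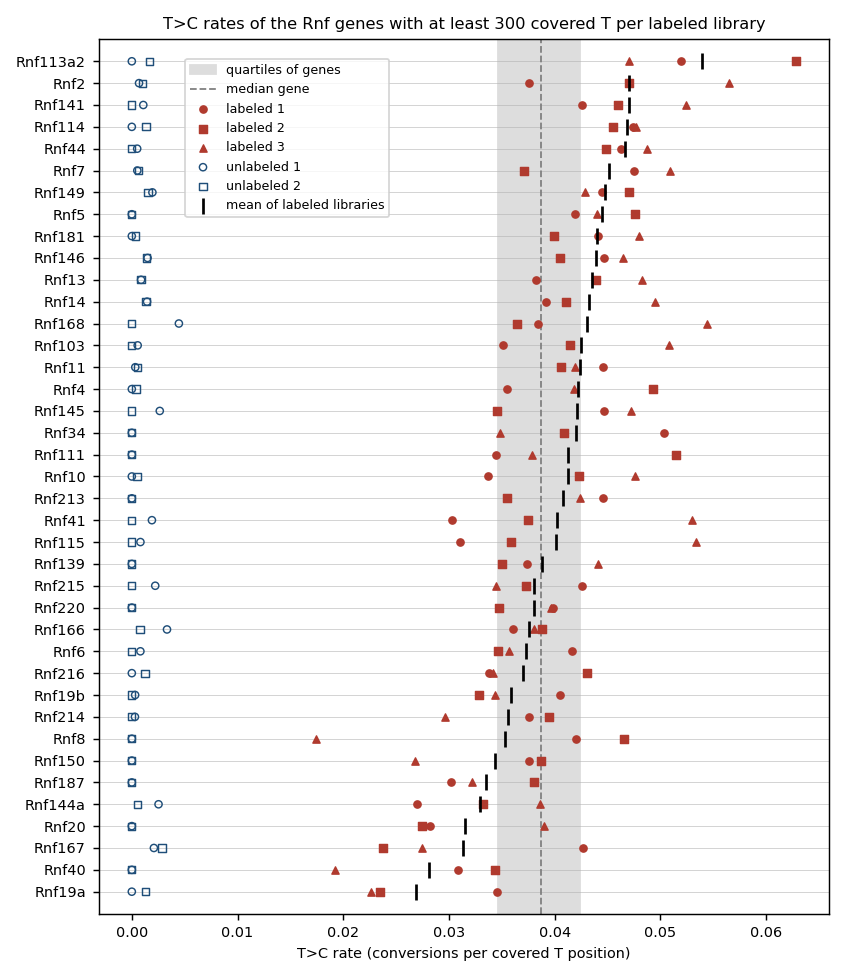
T>C rates (conversions per covered T position) of 39 of the 40 Rnf genes with at least 300 covered T in every labeled library. Filled red symbols are labeled libraries, open blue symbols unlabeled libraries, black ticks the mean of the labeled libraries, the grey band the quartiles of 5557 genes (0.0346 to 0.0423) and the dashed line their median (0.0387). Unlabeled rates lie at or near 0, and the labeled replicates of a member often span as much as the band.

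By role, the 4 ER membrane ligases with enough coverage had a median rate of 0.0423 and a range of 0.0388 to 0.0445, with Rnf5 highest at 0.0445 ± 0.00287 and Rnf139 lowest at 0.0388 ± 0.00467 (SD, n = 3). The 4 ligases of TGF-β and Wnt signaling had a median of 0.0418, with Rnf146 at 0.0439 ± 0.00306, Rnf11 at 0.0423 ± 0.00201, Rnf111 at 0.0413 ± 0.00900 and Rnf220 at 0.0381 ± 0.00287. The 7 chromatin and DNA damage ligases ranged from 0.0281 to 0.0470 around a median of 0.0413, with Rnf2 and the H2B ligase Rnf40 at opposite ends. Between them lay Rnf168 at 0.0431 ± 0.00987, Rnf4 at 0.0422 ± 0.00691 and Rnf8 at 0.0353 ± 0.0157. The 5 RING-between-RING ligases had a median of 0.0359, below the median gene at 0.0387, with Rnf14 at 0.0433 ± 0.00550, Rnf216 at 0.0370 ± 0.00527 and Rnf19b at 0.0359 ± 0.00409 beside Rnf144a and Rnf19a. The 4 transmembrane ligases with a protease-associated domain had a median of 0.0389, with Rnf149 and Rnf13 at 0.0448 ± 0.00209 and 0.0435 ± 0.00502 and Rnf150 and Rnf167 at 0.0344 ± 0.00658 and 0.0313 ± 0.0100. No member of these lists was called above or below the middle gene.

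A sequence often linked to short mRNA half-life is the AU-rich element, here searched as the nonamer ATTTATTTA on the transcript strand. It was found in the used interval of 4 of the 40 members (10%) and in 7.25% of the 5556 genes of the same coverage on reference chromosomes. These 4 intervals hold 5 matches, which are shown with the nonamer in capitals.
Rnf103, chr6:71487610-71487639, plus strand: tgtaaaaaaaATTTATTTAcagcattgaaa
Rnf145, chr11:44456183-44456212, plus strand: gaaactagtcATTTATTTAtacaataagct
Rnf146, chr10:29222623-29222652, minus strand: ctctgctgaaATTTATTTAatgtgaggaac
Rnf146, chr10:29221902-29221931, minus strand: agctaatatcATTTATTTAcatttacttta
Rnf41, chr10:128275220-128275249, plus strand: tggcaatttaATTTATTTActttttttttt
In Rnf103 and Rnf145 the match lies 245 and 155 bases before the end of the interval. In Rnf41 it lies 2081 and in Rnf146 2471 and 1750 bases before the end. For Rnf41 the nested interval chr10:128275382-128277310, which starts after the match, held 22, 16 and 6 of the 48, 50 and 18 labeled reads. Its other labeled reads lay before this start, and whether those transcripts hold the match cannot be told. The rates of these 4 members were 0.0425 ± 0.00794, 0.0421 ± 0.00670, 0.0439 ± 0.00306 and 0.0402 ± 0.0116 (SD, n = 3), all above the median gene and all below the 6 highest members. The shorter motif ATTTA, which the nonamer contains, had a median density of 1.5 per 1000 bases in the 40 members and 1.59 in the genes. Its density and the T>C rate had a rank correlation of 0.23 over the 40 members and 0.22 over the 5556 genes, a description across intervals that also differ in T content.

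The share of reads that carry at least one conversion gave another order. This share rises with the T positions that a read covers, and across the 40 members it had a rank correlation of 0.85 with covered T per read, against 0.40 for the T>C rate. By this measure, limma called 8 of 40 members above and 3 below the middle gene at an adjusted p below 0.05, where 14.6% of 5557 genes were above and 21.2% below. Those above were Rnf141, Rnf145, Rnf146, Rnf2, Rnf7, Rnf44, Rnf213 and Rnf14, with 22.8 to 28.7 covered T per read. Those below were Rnf187, Rnf144a and Rnf40, with 14.3 to 19.7. The median over the 40 members was 21.7 covered T per read and over genes 20.7.

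Rnf141 had the highest mean share, with 68.8%, 78% and 77.4% of reads converted in labeled replicates 1, 2 and 3. Rnf40 had the lowest, with 34.1%, 42.9% and 23.5%. Rnf213 had shares of 59.4%, 61.4% and 74.3%, while its T>C rate of 0.0408 ± 0.00476 (SD, n = 3) was within the quartiles of genes, and Rnf187 had shares of 31.5%, 43.5% and 40.0% on the fewest T per read of the 40. The part of covered T per read in these calls was not tested beyond the rank correlation.

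**Figure D3:**
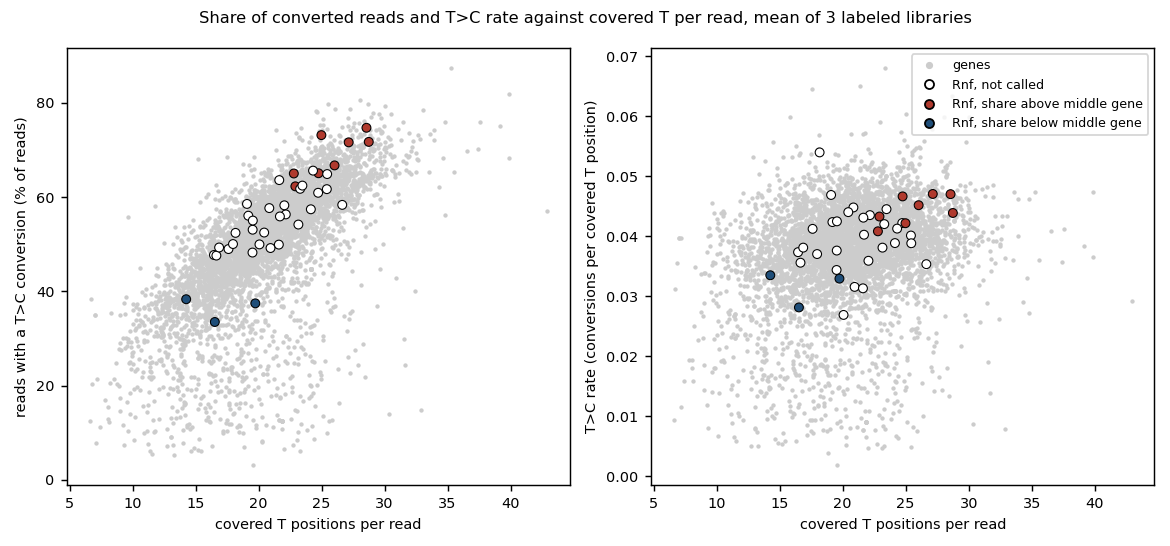
Share of reads with a T>C conversion (left, % of reads) and T>C rate (right, conversions per covered T position) against covered T positions per read, means of the 3 labeled libraries. Grey points are 5557 genes, circles the 40 Rnf genes, filled red where the share was called above and blue where it was called below the middle gene. The share climbs with covered T per read, with a rank correlation of 0.85 over the Rnf genes, and the T>C rate does so less, with 0.40.

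The last comparison asked whether S4U itself changed the reads of Rnf genes. By edgeR's quasi-likelihood test, with p-values adjusted by Benjamini-Hochberg, 0 of the 55 members tested changed between labeled and unlabeled libraries at an adjusted p below 0.05, as did 0% of the 9807 genes tested. At an unadjusted p below 0.05, edgeR gave 0 members against 5.95% of genes, and DESeq2, which called 13 of 14337 genes higher and 5 lower, gave 0 of 67 members at either threshold. The median log2 fold change was 0.18 over the 55 members and 0.02 over the 9807 genes, with 37 members above 0 and 18 below. Members were measured in the same libraries and are not independent, so no shift of the family is read from these counts. No estimate exceeded 1 in size. The median unadjusted 95% half-width was 0.84. An adjusted call asks for more than an interval that leaves out 0, so changes larger than this could also have gone uncalled. The replicate number was not part of this fit. Calls depended on this choice, and those with the replicate number as a block are given at the end.

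The largest estimates were those of Rnf167 at 0.94 ± 0.49 (SE), Rnf135 at 0.92 ± 0.91 (SE) and Rnf169 at 0.91 ± 0.48 (SE), all on the log2 scale as labeled over unlabeled. Rnf167 had levels of 15.2, 34.3 and 31.6 with and 12.5 and 17.1 without S4U, and labeled replicate 1 lay between the unlabeled libraries. Rnf135, known for activating RIG-I, rested on 4, 14 and 10 labeled and 7 and 8 unlabeled reads, and its 95% interval ran from −1.22 to 3.06. For Rnf169, whose used interval lies outside its annotated exons, levels were 86.3, 42.7 and 37.5 with and 42.3 and 20.1 without S4U. Its annotated 3′ UTR interval had 81, 90 and 38 reads with and 43 and 37 without S4U. Relative to the counted reads of each library, every labeled value there was above both unlabeled ones. With reads summed over intervals, Rnf169 alone of 57 members was below an unadjusted p of 0.05 in edgeR, as were 596 of 10407 genes. At an adjusted p below 0.05 it was not called.

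Rnf41 (Nrdp1), which degrades the receptor ErbB3, had a log2 fold change of 0.78 ± 0.45 (SE) with levels of 30.5, 41.8 and 35.6 and 13.6 and 31.1. Only unlabeled replicate 1 was low. On the intervals used, Rnf166 was the single member with every labeled level above both unlabeled levels, 79.9, 82.8 and 92.9 against 69.99 and 59.2. Its log2 fold change was 0.47 ± 0.26 (SE) with a 95% interval of −0.15 to 1.10 (edgeR).

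At the other end, Rnf152, a lysosomal ligase that restrains mTORC1 signaling, had a log2 fold change of −0.67 ± 0.51 (SE), Rnf185 of −0.56 ± 0.37 (SE) and Rnf115 of −0.53 ± 0.30 (SE). Rnf115 had levels of 50.1, 39.3 and 61.3 with and 78.1 and 73.3 without S4U, and the groups did not overlap. Rnf185 had 24.7, 37.7 and 17.8 and 39.6 and 45.2, also without overlap. In all, 6 members had every labeled level below both unlabeled levels, Rnf152, Rnf185, Rnf115, Rnf144a, Rnf217 and Rnf14. Together with Rnf166 this makes 7 of 55 members without overlap in either direction, where 21.3% of the 9807 genes were without overlap.

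**Figure D4:**
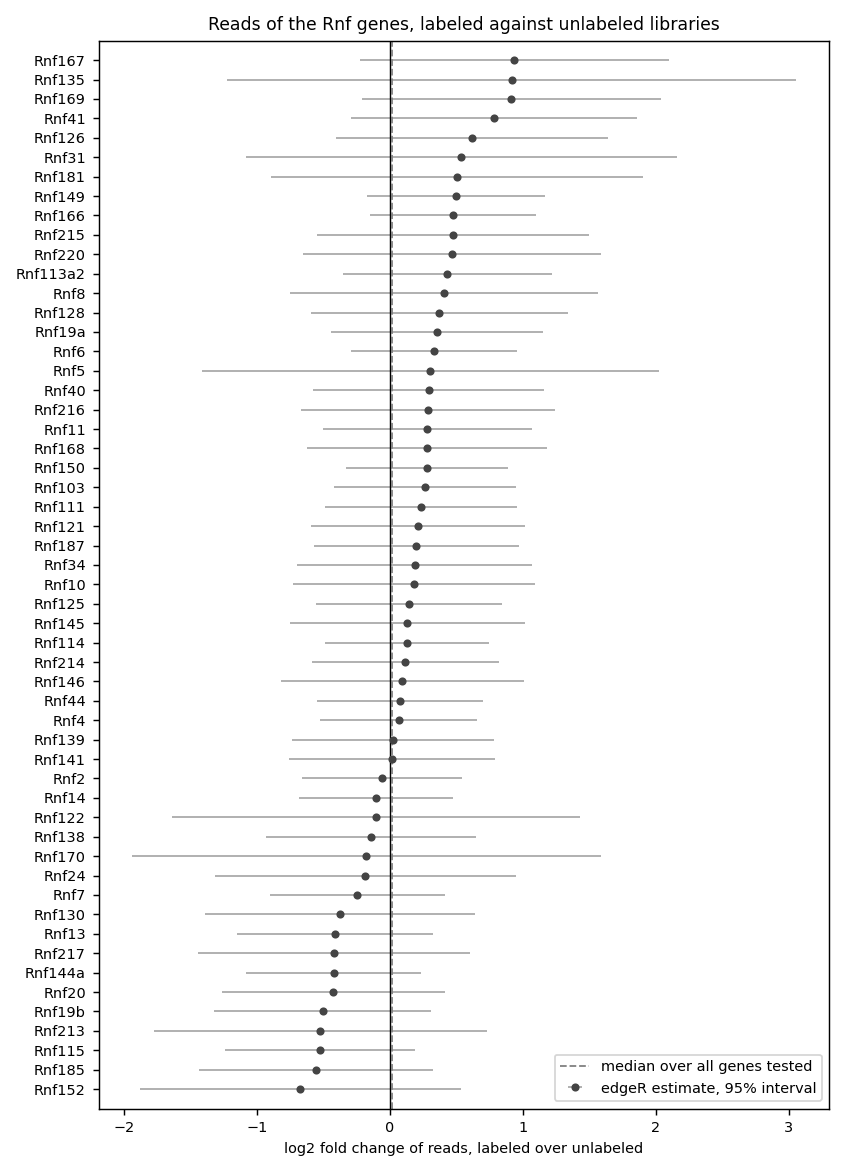
Log2 fold change of reads, labeled over unlabeled, for 54 of the 55 Rnf genes tested by edgeR, with 95% intervals. The solid line is 0 and the dashed line the median over 9807 genes (0.02). Every interval shown crosses 0.

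Other genes of the pathway were read from lists of 37 genes for ubiquitin and its E1 and E2 enzymes and 7 partners outside the Rnf names. Of the 37, 33 were read in every library with a median level over the list of 68.2. The T>C rate was raised in 33 of 33 tested, where 95.2% of all genes had a raised rate. The median rate of the 29 with enough coverage was 0.0404. By limma, 1 was called above the middle gene and 1 below, where 2.74% of genes were above and 10.6% below. The one above was Ube2a, the E2 enzyme that works with Rnf20 and Rnf40, with rates of 0.0439, 0.0533 and 0.0561 and an adjusted p of 0.0277. Of the 7 partners, all had a raised rate and 0 of the 5 with enough coverage were called away from the middle gene, beside the same percentages of genes. Bmi1, the Polycomb partner of Rnf2, had a mean rate of 0.0468 ± 0.00428 (SD, n = 3), close to the 0.0470 of Rnf2. No gene of either list changed in reads at an adjusted p below 0.05 (edgeR), as did 0% of all genes tested. Mdm2, a ligase for p53, was the only one below an unadjusted p of 0.05, where 5.95% of all genes were. Its log2 fold change was 1.21 ± 0.25 (SE) with an adjusted p of 0.532 (edgeR). Its levels were 364, 304 and 281 with S4U and 141 and 148 without, and the groups did not overlap.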

How the data were processed

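SLAMseq libraries of cardiac fibroblasts were analysed, 3 with and 2 without S4U, grouped by the labels. The authors extracted unique molecular identifiers with UMI-tools, mapped reads to mm39 with SLAM-DUNK (version 0.4.3 per the file headers) and removed duplicates. They deposited raw counts of reads, covered T positions, conversions and converted reads per 3′ UTR interval. The deposited conversion rate is a fraction, conversions over covered T. The deposited CPM divides by 10975173 to 14616278 reads per library, more than were counted, so levels were computed again from counted reads. No column was left unmapped.

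Repeated rows were dropped. For a gene, the interval with the highest mean CPM in labeled libraries was taken, and ties went to more covered T, greater length and lower position. Coordinates are GRCm39, counted from 1, with GENCODE M39 annotation.

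Rates were compared by a beta-binomial likelihood-ratio test (unadjusted, two-sided, at least 1 covered T in every library). limma tested the log2 odds (pseudocount 0.5) minus the library median in labeled libraries. edgeR's quasi-likelihood test (TMM, filterByExpr) compared reads. All were fitted on all genes with Benjamini-Hochberg adjustment for limma and edgeR, and tested on simulated data. Versions were limma 3.58.1, edgeR 4.0.16 and DESeq2 1.42.0 in R 4.3.3, and pandas 2.3.3, numpy 2.4.6, numba 0.67.0, scipy 1.17.1 and matplotlib 3.10.9 in Python 3.11.15.

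Members with values in the text were the 6 highest in level, the 6 highest and 6 lowest in rate among those with at least 300 covered T, members changed in reads and all detected members of role lists. Other members given with values, such as Rnf135, Rnf115, Rnf152, Rnf41, Rnf181, Rnf207 and Rnf213, were added after their values were seen. Results for some genes are not reported here, and these are left out of the labelled figures but kept in the counts and fits. Members and lists were chosen with earlier results of these data known. Alternatives were other coverage minimums, background subtraction, other measures, tools, normalizations, filters and intervals, the replicate number as a block, and each library left out.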

Additional observations from a re-analysis of the deposited data

How the results depend on the processing

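The count of members with a raised T>C rate, 57, was 51 of 51 where each library covered at least 100 T and 15 of 15 where each covered at least 1000, because fewer members were tested, and 57 with Benjamini-Hochberg adjustment, with limma on the log odds and with intervals chosen over 5 libraries. With each library left out in turn it ran from 55 to 58, where leaving out an unlabeled library leaves 1 control that is assumed to vary like the labeled ones. The count of members away from the middle gene, 0, became 2 with at least 1000 covered T (Rnf149 and Rnf44, both above). There, 31.1% of 2123 genes were called in either direction. By the share of converted reads it became 11 of 40, or 27.5%, where 35.8% of 5557 genes were called in either direction. Without labeled replicate 3 it became 2 (Rnf113a2 and Rnf149, of 49 tested), where 11.6% of 7610 genes were called in either direction. Over the left-out libraries it ran from 0 to 2, and under the other alternatives it was 0. The cause of these changes was not tested.

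No member changed in reads under DESeq2, other size factors, other filters, summed intervals, other intervals or any left-out library, with 0 in each. With the replicate block, 4 of 55 members passed an adjusted p below 0.05 in edgeR (Rnf149, Rnf41 and Rnf169 higher and Rnf115 lower with S4U), or 7.27%, against 11.7% of 9807 genes, on 1 residual degree of freedom. Of the pathway lists, 2 of 32 genes of ubiquitin and its E1 and E2 enzymes (Uba6 and Ube2m) and 1 of 7 partners passed with the block and were higher with S4U. The partner was Mdm2, with a log2 fold change of 1.28 and an adjusted p of 3.52e-13 (edgeR). Neither the labels nor the methods say what a shared number marks, and there are only 2 pairs, so the samples were not treated as paired. Deviations from the group means correlated at 0.874 for the libraries numbered 1 and 0.781 for those numbered 2 over 4619 genes, but also at 0.638 for labeled replicate 3 and unlabeled replicate 2, which share no number. With 2 unlabeled libraries their deviations are mirror images, so each labeled library correlates with one of them as strongly as it does inversely with the other.

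The median rate of the members, 0.0410, was 0.0405 with at least 100 and 0.0433 with at least 1000 covered T and 0.0405 after background subtraction, and ran from 0.0384 to 0.0412 with a labeled library left out. The median level, 28.3, was 2.37 on the deposited CPM scale, which has a larger divisor, 41.6 over the 59 members read in every labeled library, and 28.7 to 29.9 with a library left out. For members named by the rule, 123 of 124 alternative values of the rate stayed within 1 SD and 517 of 526 of the log2 fold change within 1 SE. Most alternatives of the rate leave out 1 of 3 labeled libraries, which cannot move a mean by 1 SD. No stability is therefore read from the count for the rate. Labeled replicate 3 has the fewest reads and limits which members reach the coverage minimum.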
